A study of Homo sapiens with 6 samples.

Results

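The MYC and MAX network was followed here through 9 genes, which are MYC, MYCN, MAX, MXI1, MXD1, MXD3, MXD4, MNT and MLX. They were taken by name from the 57820 genes of each deposited table, and all 9 had enough counts to be tested. RNA-seq compared 3 WT samples with 3 ARID1A-KO samples of AID-DIvA cells, all untreated and numbered 3 to 5 in each genotype. AID-DIvA is a U2OS osteosarcoma line that carries the AsiSI nuclease and an auxin-inducible degron. AsiSI cuts DNA only after 4-hydroxytamoxifen, so neither genotype had induced breaks. ARID1A-KO cells were made with Cas9 and guide RNAs against ARID1A and grown as clones, and which clone was sequenced is not given in the sources used here. Whatever else distinguishes a clone from its parental cells therefore cannot be told apart from the loss of ARID1A.

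MYC is a transcription factor that binds DNA as a dimer with MAX. Such dimers recognize the E-box CACGTG, recruit coactivators and raise the transcription of genes for ribosome biogenesis, nucleotide synthesis and growth. MAX also pairs with MXD1, MXI1, MXD3, MXD4 and MNT, and these dimers occupy the same E-boxes but bring the SIN3 and histone deacetylase corepressor, so that they oppose MYC. MLX is the MAX-like partner of the sugar sensors MLXIP and MLXIPL and also pairs with MXD1, MXD4 and MNT. In osteosarcoma, MYC is known as a frequently gained or amplified oncogene.

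The E-box itself can be shown in the promoters of the network. RefSeq promoter windows, from 250 bases before to 50 bases after a start, were given for 8 of the 9 genes, not for MYC, and made up 11 windows. CACGTG, which reads the same on both strands, was found in 3 of these 11 windows (27.3%), those of MXD4, MNT and MLX, and in 2548 of 35116 windows of all genes (7.26%). Among the windows of the lists of genes known to be induced by MYC, described later, 29 of 76 held it (38.2%). The match begins 238 bases before the start of MXD4, 193 before that of MNT and 50 before that of MLX. The stretches below are read 5′ to 3′ on the strand of the gene, with the E-box in capitals. In GRCh37 they lie at chr4:2264057-2264086 on the minus strand, chr17:2304530-2304559 on the minus strand and chr17:40719056-40719085 on the plus strand.
MXD4: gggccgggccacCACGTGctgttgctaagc
MNT: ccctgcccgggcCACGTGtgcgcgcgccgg
MLX: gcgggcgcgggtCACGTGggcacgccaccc
None of the 3 genes with a match passed the test between genotypes, and neither of the 2 network genes that did pass has the letters in its windows. These calls depend on the settings, as described later, and a link between the letters and the calls was not tested.

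The reverse-stranded counts of a sample summed to 54512105 at the lowest and 84088708 at the highest, and levels are given as CPM, counts scaled to the same library size in every sample. ARID1A itself stood at 173 ± 6.67 CPM in WT (SD, n = 3) and at 25.9 ± 1.38 CPM in ARID1A-KO cells, a log2 fold change of -2.74. Of the 9 osteoblast markers, 4 had at most 20 counts in every sample, among them SP7, BGLAP and IBSP, and the summed level of all 9 was 1235 to 1295 CPM in WT and 726 to 809 CPM in ARID1A-KO samples. In this list 4 of 6 tested genes fell, where 18.4% of all genes tested did, and 0 rose (edgeR, also 0 at an unadjusted p under 0.05, and 4 called with DESeq2), led by ALPL with a log2 fold change of -2.45 and SPP1 with -1.45. Summed leukocyte markers lay at 1.51 to 2.50 CPM in WT and 0.250 to 0.750 CPM in ARID1A-KO samples, endothelial markers at 1.72 to 2.40 and 2.10 to 2.25, and epithelial markers at 6.07 to 8.38 and 7.46 to 7.90. Of 3 tested epithelial markers, EPCAM rose with a log2 fold change of 0.44, and CDH1 with -1.19 and KRT14 with -3.40, both low and named after their values were seen, fell. The 1 tested leukocyte marker fell, and 0 of 2 endothelial markers were called (edgeR, 0 also at an unadjusted p under 0.05 and 0 with DESeq2). In bulk RNA of a cell line, fewer cells that express a marker and less of its RNA per cell cannot be told apart. The part of these markers in the results on the network was not tested.

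Levels of different genes are compared as RPKM, the CPM divided by the exonic length in kilobases. This length is fixed for each gene, such as 2995 bases for MYC and 8728 for MNT. Which transcripts the cells use was not measured, so the order of genes holds only for these lengths. In WT cells MYC stood far above the rest of its network, with 72.5 ± 1.22 RPKM (SD, n = 3, as for all levels that follow), higher than 97.4% of the genes tested. MLX followed with 18.8 ± 0.443 RPKM and MAX with 16.3 ± 1.39 RPKM. The repressive partners of MAX were lower, with 5.61 ± 0.427 RPKM for MXI1, 3.51 ± 0.496 for MXD3, 2.16 ± 0.0752 for MNT, 1.88 ± 0.257 for MXD4 and 0.954 ± 0.135 for MXD1. MYCN, the paralog of MYC known from neuroblastoma, was close to the detection limit at 0.0956 ± 0.0265 RPKM.

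The order was nearly the same in ARID1A-KO cells, with 80.2 ± 7.75 RPKM for MYC, 21.1 ± 2.56 for MAX and 20.3 ± 0.374 for MLX. In WT cells the ranges of neighbours in this order overlapped only for MNT and MXD4. In ARID1A-KO cells they overlapped only for MAX and MLX, whose order was therefore not set beyond the spread between samples. MYC exceeded the gene below it 3.86-fold in WT and 3.80-fold in ARID1A-KO cells.

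**Figure D1:**
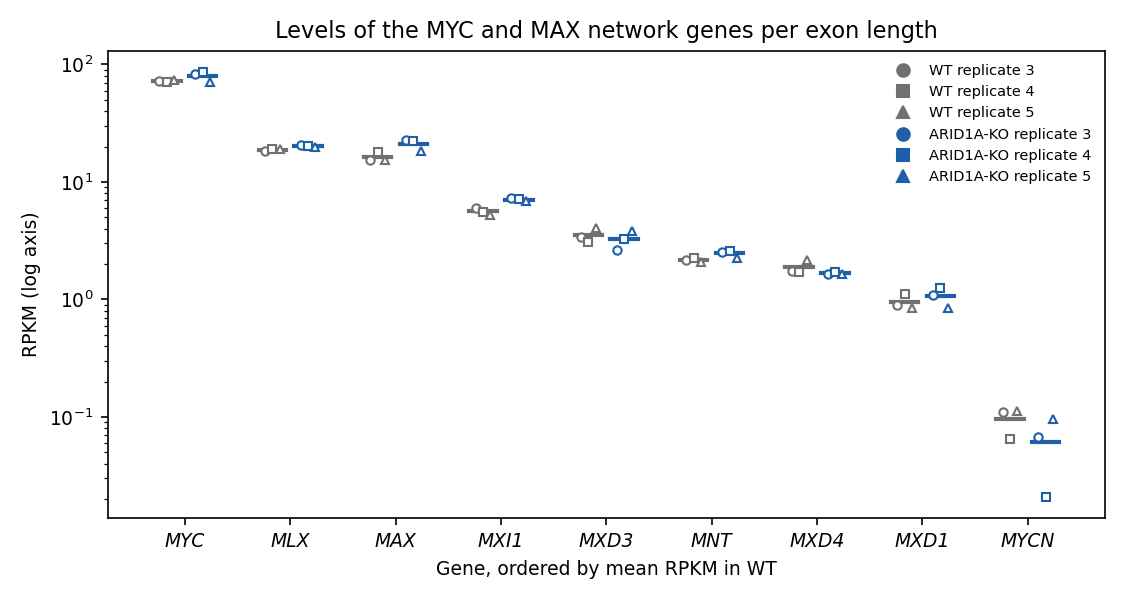
RPKM on a log axis for the 9 network genes, ordered by their mean in WT, with a symbol for each sample and a line at the mean of each genotype (n = 3). MYC lies at 71.2 to 86.3 RPKM in every sample, MLX and MAX between 15.4 and 22.9, and MYCN below 0.113.

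MYC (ENSG00000136997.10, chromosome 8 from 128747680 to 128753674 on the plus strand, in GRCh37 as for all genes) did not pass the test. Its level was 218, 213 and 220.35 CPM in WT replicates 3, 4 and 5, and 248, 259 and 214 CPM in the ARID1A-KO replicates of the same numbers. ARID1A-KO replicates 3 and 4 lay above every WT sample, whereas replicate 5 lay inside the WT range. The log2 fold change was 0.15 (adjusted p = 0.167 by the quasi-likelihood test of edgeR with Benjamini-Hochberg adjustment, SE 0.08), with a 95% interval from -0.03 to 0.32, which reaches up to 1.25-fold. Without ARID1A-KO replicate 5 the log2 fold change was 0.22 and the adjusted p 0.0202, and without ARID1A-KO replicate 4 they were 0.09 and 0.486 (edgeR). Offsets on exonic length and on GC content gave 0.09 each (adjusted p = 0.428 and 0.354, edgeR), and with the median of the genes within 5 Mb taken off 0.10 was left (adjusted p = 0.367). Counting error is small for MYC, which had at least 12824 counts in each sample.

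MYCN (ENSG00000134323.10, chromosome 2 from 16080686 to 16087129, plus strand) had 19, 12 and 17 counts in WT and 12, 3 and 22 counts in ARID1A-KO samples. The genotypes overlapped, and its log2 fold change of -0.53 had a 95% interval from -1.56 to 0.50 (adjusted p = 0.403, edgeR). Without ARID1A-KO replicate 4, the sample with 3 counts, the log2 fold change was -0.19, and without ARID1A-KO replicate 5 it was -1.02. No difference in MYCN was detectable at this depth.

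MAX (ENSG00000125952.14, chromosome 14 from 65472892 to 65569413, minus strand), the obligate partner of MYC and of its antagonists, rose in ARID1A-KO cells. It had 68.8, 79.1 and 68.2 CPM in WT and 101, 98.9 and 80.6 CPM in ARID1A-KO samples. The lowest ARID1A-KO sample, replicate 5, lay just above the highest WT sample, replicate 4. The log2 fold change was 0.38 (adjusted p = 0.0145 by edgeR, SE 0.10), or 1.30-fold with a 95% interval from 1.12 to 1.51. The call was lost without WT replicate 3 (adjusted p = 0.0585), WT replicate 5 (0.0601), ARID1A-KO replicate 3 (0.0557) or ARID1A-KO replicate 4 (0.0583, all by edgeR), with log2 fold changes from 0.32 to 0.34. Around MAX, 86 other genes were tested within 5 Mb, with a median log2 fold change of 0.19, and with that median taken off MAX changed by 0.19 (adjusted p = 0.173, edgeR).

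Of the antagonists, MXI1 (ENSG00000119950.16, chromosome 10 from 111967363 to 112047123, plus strand) also rose. It had 27.8, 25.8 and 23.9 CPM in WT and 33.6, 32.8 and 31.6 CPM in ARID1A-KO samples. All ARID1A-KO samples lay above all WT samples. Its log2 fold change was 0.34 (adjusted p = 0.00741 by edgeR, SE 0.08), or 1.26-fold with a 95% interval from 1.12 to 1.42, and the adjusted p stayed between 0.00779 and 0.0330 with each sample left out in turn. The region around MXI1 moved the same way. Within 5 Mb lay 32 other tested genes with a median log2 fold change of 0.16, and within 2 Mb lay 13 with a median of 0.52, which is more than MXI1 itself changed, with 8 of them called higher and 0 lower (edgeR). With the median of the 5 Mb taken off, MXI1 changed by 0.17 (adjusted p = 0.111, edgeR).

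MNT (ENSG00000070444.10, chromosome 17 from 2287354 to 2304412, minus strand), an antagonist found in most tissues, did not pass the threshold although its genotypes did not overlap. It had 19.0, 19.5 and 18.2 CPM in WT and 22.3, 22.4 and 19.8 CPM in ARID1A-KO samples. Replicate 5 was again the lowest ARID1A-KO sample. The log2 fold change was 0.19 (adjusted p = 0.0965 by edgeR, SE 0.08), with a 95% interval from 0.01 to 0.36, and the adjusted p was 0.0396 without ARID1A-KO replicate 5 and 0.0345 with an offset on exonic length. In the other direction, an offset on GC content left 0.07 (adjusted p = 0.596) and taking off the neighbours' median left 0.06 (adjusted p = 0.580, edgeR).

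The 3 MXD genes showed no call. MXD1 and MXD4 are best known for rising as cells leave the cell cycle, and MXD3 for its expression in proliferating cells. MXD1 (ENSG00000059728.6, chromosome 2 from 70124820 to 70170077) had 5.70, 7.002 and 5.40 CPM in WT and 6.90, 7.92 and 5.40 CPM in ARID1A-KO samples. MXD3 (ENSG00000213347.6, chromosome 5 from 176728462 to 176739758) had 17.4, 15.96 and 20.9 CPM in WT and 13.7, 16.8 and 19.6 CPM in ARID1A-KO samples. MXD4 (ENSG00000123933.10, chromosome 4 from 2249159 to 2264021) had 12.3, 12.1 and 15.3 CPM in WT and 11.5, 12.2 and 11.7 CPM in ARID1A-KO samples. The genotypes overlapped for all 3 genes. The 95% interval of the log2 fold change ran from -0.21 to 0.52 for MXD1, from -0.43 to 0.21 for MXD3 and from -0.41 to 0.08 for MXD4, with adjusted p-values of 0.495, 0.582 and 0.259 (edgeR). For MXD1 the log2 fold change ran from 0.03 without ARID1A-KO replicate 4 to 0.30 without ARID1A-KO replicate 5. For MXD3 it ran from -0.25 without ARID1A-KO replicate 5 to 0.016 without ARID1A-KO replicate 3, was 0.0024 without WT replicate 5, and was -0.22 with an offset on GC content. For MXD4 an offset on GC content gave -0.29 (adjusted p = 0.0409), the neighbours' median taken off gave -0.28 (adjusted p = 0.0726), and leaving out WT replicate 5, the highest sample, gave -0.05 (adjusted p = 0.706, edgeR). MXD4 is rich in GC, with 60.1% in its exons, as are MNT with 59.7% and MXD3 with 58.4%, whereas MXD1 has 42.7%.

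MLX (ENSG00000108788.7, chromosome 17 from 40719086 to 40725257, plus strand), which pairs with the sugar sensors rather than with MYC, was not called. It had 77.9, 81.4 and 80.7 CPM in WT and 88.2, 86.4 and 85.0 CPM in ARID1A-KO samples. The genotypes did not overlap, but they differed by little, with a log2 fold change of 0.11 (adjusted p = 0.137 by edgeR, SE 0.05) and a 95% interval from -0.01 to 0.24. The interval reaches up to 1.18-fold. An offset on GC content left 0.05 (adjusted p = 0.484) and taking off the neighbours' median left 0.07 (adjusted p = 0.392, edgeR).

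**Figure D2:**
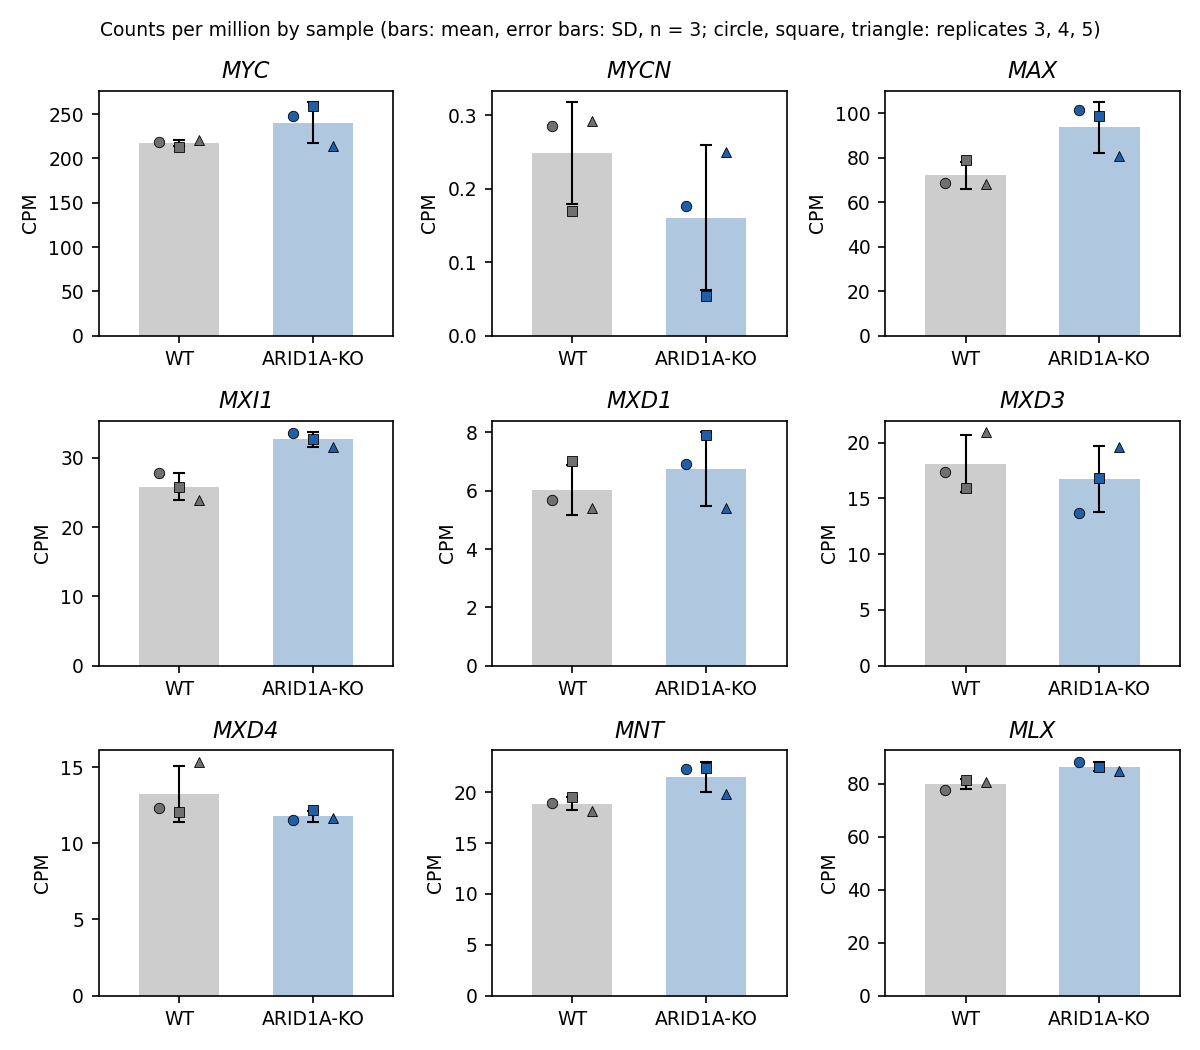
CPM of each network gene in every sample, with axes that start at 0, bars at the mean and error bars of 1 SD (n = 3 per genotype). The ARID1A-KO samples of MAX (80.6 to 101 CPM), MXI1 (31.6 to 33.6), MNT (19.8 to 22.4) and MLX (85.0 to 88.2) lie above all WT samples, and the other 5 genes overlap.

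In all, 2 of the 9 genes (22.2%) passed an adjusted p under 0.05, both higher in ARID1A-KO cells, beside 36.2% of all 19599 genes tested. In the direction upward the background was 17.8% of all genes and downward 18.4%, and 0 network genes were called lower. At an unadjusted p under 0.05, 3 network genes were higher and 0 lower, and the DESeq2 Wald test called 2. The CPM of the genotypes did not overlap for 4 of the 9 genes (44.4%), against 49.5% of all genes tested, and in all 4 the ARID1A-KO samples were the higher, as in 24.8% of all genes. The median log2 fold change was 0.15 over the 9 genes and 0.0066 over all genes tested, and 0 of the 9 changed by 2-fold or more. Over both directions, the share called and the share without overlap were thus no higher in the network than among all genes. Upward alone, the share called was 22.2% beside 17.8%, and the share without overlap 44.4% beside 24.8%. These network shares rest on 2 and 4 genes.

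The 9 genes lie on 7 chromosomes, and those on the same chromosome lie too far apart to share neighbours within 5 Mb. The median log2 fold change of the other genes within 5 Mb ran from -0.08 for MYCN to 0.19 for MAX, and it was above 0 for 7 of the 9. MAX and MXI1, the genes that passed the test, had the highest of these medians. Around MYC the 53 genes within 5 Mb had a median of 0.05 and the 10 within 2 Mb one of -0.18, with 3 called higher and 2 lower (edgeR). With the neighbours' median taken off every gene, 0 network genes passed the threshold in edgeR. Whether the number of chromosome copies differs between the genotypes was not measured, and its part in these results was not tested.

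**Figure D3:**
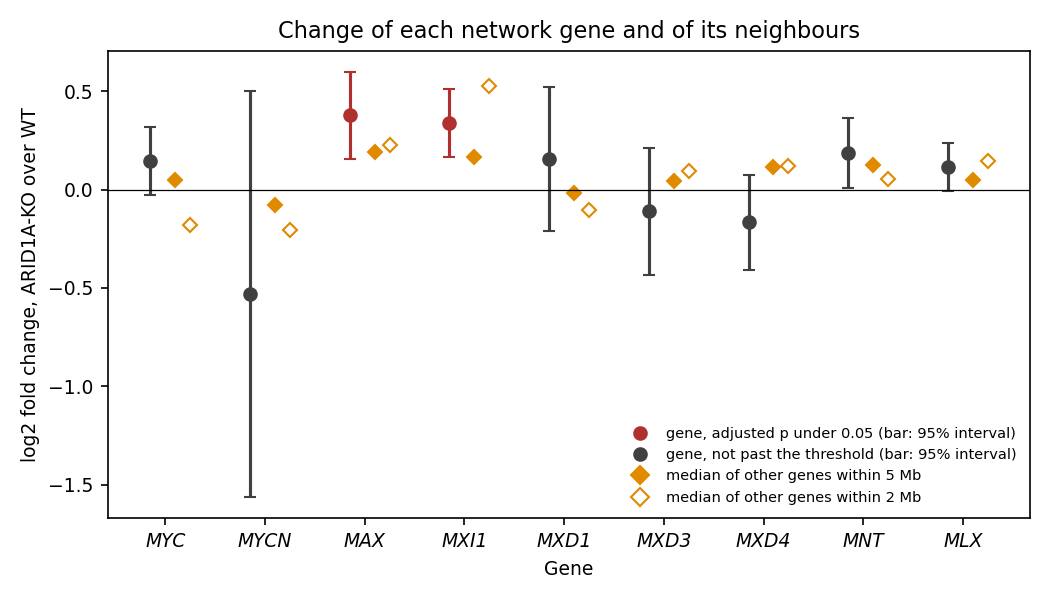
Log2 fold change of ARID1A-KO over WT for each network gene (circles, bars are 95% intervals) beside the median of the other genes tested within 5 Mb and 2 Mb (filled and open diamonds). For MAX the medians are 0.19 and 0.23 beside its own 0.38, and for MXI1 they are 0.16 and 0.52 beside its own 0.34.

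Ratios of RPKM in the same sample describe the balance of RNA within the network, and they are given without a test. The proteins that form the dimers were not measured here, so these ratios do not give the balance between dimers. MYC exceeded MAX 4.69-fold, 3.99-fold and 4.78-fold in WT and 3.62-fold, 3.87-fold and 3.93-fold in ARID1A-KO samples. The ARID1A-KO samples lay below the WT samples, by a small margin between WT replicate 4 and ARID1A-KO replicate 5. The summed level of the 5 antagonists was 14.2, 13.7 and 14.4 RPKM in WT and 15.2, 15.9 and 15.4 RPKM in ARID1A-KO samples. MYC exceeded this sum 5.14 ± 0.0342-fold in WT and 5.16 ± 0.460-fold in ARID1A-KO samples (SD, n = 3 each), and the samples overlapped. MYC made up 59.6% ± 1.03 of the summed RPKM of the network in WT and 58.4% ± 1.24 in ARID1A-KO cells.

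Overlapping genes limit some counts. MXD3 shares 2284 bp with RAB24 and MXD1 7888 bp with SNRNP27 on the same strand, so reads in shared exons could not be assigned to either gene with certainty. On the opposite strand MXD3 overlaps PRELID1, and the forward-strand counts at MXD3 came to 1136% of its own counts, whereas those at MLX, which overlaps PSMC3IP, came to 31.6%. Counting by strand keeps these apart.

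Other genes of the pathway were described in lists, read against the background of 36.2% called. The first holds the remaining network genes. MYCL, MGA and MLXIP were tested and 0 of the 3 were called (edgeR, 0 also at an unadjusted p under 0.05 and 0 with DESeq2), with log2 fold changes of 0.30, -0.05 and 0.15. MLXIPL had 1 to 19 counts per sample and was too low to test. The targets of MLX partners, TXNIP and ARRDC4, which restrain glucose uptake, had log2 fold changes of -0.24 and 0.08 and were not called either (0 of 2 with edgeR, at an unadjusted p under 0.05 and with DESeq2).

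Genes that control the stability of MYC protein were mostly lower where they were called. Of 14 genes of MYC turnover, 1 rose and 6 fell (7 of 14 called), and the median log2 fold change was -0.19. FBXW7, the ubiquitin ligase subunit that marks phosphorylated MYC for degradation, had 26.9, 26.0 and 27.4 CPM in WT and 14.1, 13.96 and 12.9 CPM in ARID1A-KO samples. Its log2 fold change was -0.97 (adjusted p = 2.00e-05 by edgeR, SE 0.07), and its 32 neighbours within 5 Mb had a median of -0.88. GSK3B, the kinase that places the phosphate read by FBXW7, had 157, 131 and 151 CPM in WT and 91.7, 91.9 and 93.1 CPM in ARID1A-KO samples, a log2 fold change of -0.66, with a median of -0.44 among 59 neighbours. All WT samples of both genes lay above all ARID1A-KO samples. With the neighbours' median taken off, FBXW7 changed by -0.09 (adjusted p = 0.391) and GSK3B by -0.22 (adjusted p = 0.0453, edgeR). TRPC4AP, linked to another ligase complex for MYC, rose by 0.22 on the log2 scale, with a median of 0.22 among its neighbours, and was not called without WT replicate 3 or ARID1A-KO replicate 3 (highest adjusted p 0.0644, edgeR).

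Among 13 cofactors of MYC, 1 rose and 3 fell (30.8% called). RUVBL1, an ATPase of chromatin remodelling complexes that bind MYC, had a log2 fold change of -0.37 beside a median of -0.42 among its neighbours, and its call was lost without WT replicate 5 (adjusted p = 0.0635, edgeR). CDK9, the kinase that releases paused RNA polymerase, had 0.21 and was not called without WT replicate 3 or ARID1A-KO replicate 4 (highest adjusted p 0.0983, edgeR), nor with an offset on exonic length (0.15, adjusted p = 0.0693) or GC content (0.10, adjusted p = 0.142). Of 8 corepressor genes used by MXD proteins and MNT, 1 rose and 2 fell (37.5% called). SIN3B, which the MXD proteins bind directly, fell from 72.3 ± 0.945 CPM to 49.1 ± 1.37 CPM, with a log2 fold change of -0.56 (adjusted p = 9.14e-05, edgeR), beside a median of -0.36 among 210 neighbours. With this median taken off, -0.20 was left (adjusted p = 0.0240). HDAC1, a histone deacetylase of the SIN3 complex, rose by 0.26 on the log2 scale, and its call was lost without ARID1A-KO replicate 3 (adjusted p = 0.0517, edgeR).

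The genes that MYC is known to induce were called in both directions. Of 29 ribosome biogenesis genes, 3 rose and 1 fell (13.8% called), and their median log2 fold change was 0.09. NIP7, needed for ribosomal RNA processing, rose from 89.5 ± 5.82 CPM to 151 ± 12.996 CPM, with a log2 fold change of 0.75, and its 146 neighbours had a median of 0.55. NOLC1, a nucleolar chaperone, rose by 0.53 beside a median of 0.36. NPM1, the abundant nucleolar protein, had -0.25 and lost its call whichever sample was left out except ARID1A-KO replicate 3 (adjusted p up to 0.126, edgeR), and also with an offset on GC content (-0.18, adjusted p = 0.0995). Of 19 genes of nucleotide and polyamine synthesis, 1 rose and 3 fell (21.1% called), with a median of 0.01. CTPS1, which makes CTP, rose from 295 ± 31.0 CPM to 467 ± 46.4 CPM, with a log2 fold change of 0.66 and a neighbour median of 0.13. UMPS, the last enzyme of UMP synthesis, had -0.38 with a neighbour median of -0.42.

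Of 18 other induced targets tested, 3 rose and 5 fell (44.4% called), and the median log2 fold change was -0.04. PPRC1, a coactivator of mitochondrial biogenesis, had 0.64 with a neighbour median of 0.36, and the peroxidase PRDX3 had 0.26 with one of 0.45. PPRC1 lies close to NOLC1 on chromosome 10, so these rises share a region and a neighbour median. BCAT1, which transaminates branched-chain amino acids, had -0.57 with a neighbour median of -0.36. LDHA, the lactate dehydrogenase of glycolysis, fell from 1243 ± 118 CPM to 960.3 ± 38.8 CPM, with a log2 fold change of -0.37 and a neighbour median of 0.01. TERT, the telomerase reverse transcriptase, had at most 3 counts in a sample and was not tested.

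Genes that MYC is known to repress went in both directions, 3 up and 3 down of 8 tested (75.0% called), with a median of -0.09. THBS1, the antiangiogenic thrombospondin, had 537, 998 and 664 CPM in WT and 260, 268 and 252 CPM in ARID1A-KO samples. Its log2 fold change was -1.50 (adjusted p = 0.000309 by edgeR, SE 0.19), with a neighbour median of -0.04, and the WT samples differed among themselves far more than the ARID1A-KO samples. CLU, the chaperone clusterin, rose by 0.72 with a neighbour median of -0.02, and NDRG2 rose by 0.65 with one of 0.32. CDKN1A, which encodes the CDK inhibitor p21, had -0.45, and its call was lost without ARID1A-KO replicate 3 (adjusted p = 0.0564, edgeR) or ARID1A-KO replicate 5. Without WT replicate 5, which stood at 405 CPM beside 278 and 299.9 CPM in the other WT samples, it was -0.27.

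Of 5 noncoding genes beside MYC and MYCN, 2 were tested. PVT1, the long noncoding RNA next to MYC, had 50.4, 58.8 and 47.2 CPM in WT and 69.0, 63.9 and 63.9 CPM in ARID1A-KO samples. The genotypes did not overlap, and its log2 fold change was 0.33 (adjusted p = 0.0145 by edgeR, SE 0.09). The call was lost without WT replicate 3, WT replicate 5 or ARID1A-KO replicate 3, with an adjusted p of up to 0.0553. With the neighbours' median taken off, PVT1 kept its call (log2 fold change 0.31, adjusted p = 0.0211, edgeR). In the other lists the calls of RUVBL1, TRPC4AP, NPM1, NOLC1, NIP7, UMPS, BCAT1 and NDRG2 were lost, as was that of FBXW7. Their adjusted p ran from 0.0663 to 0.946 (edgeR). PRDX3 turned to -0.18, and PPRC1 kept 0.27. MYCNOS, the antisense RNA of MYCN, was at 0 counts in every sample.

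**Figure D4:**
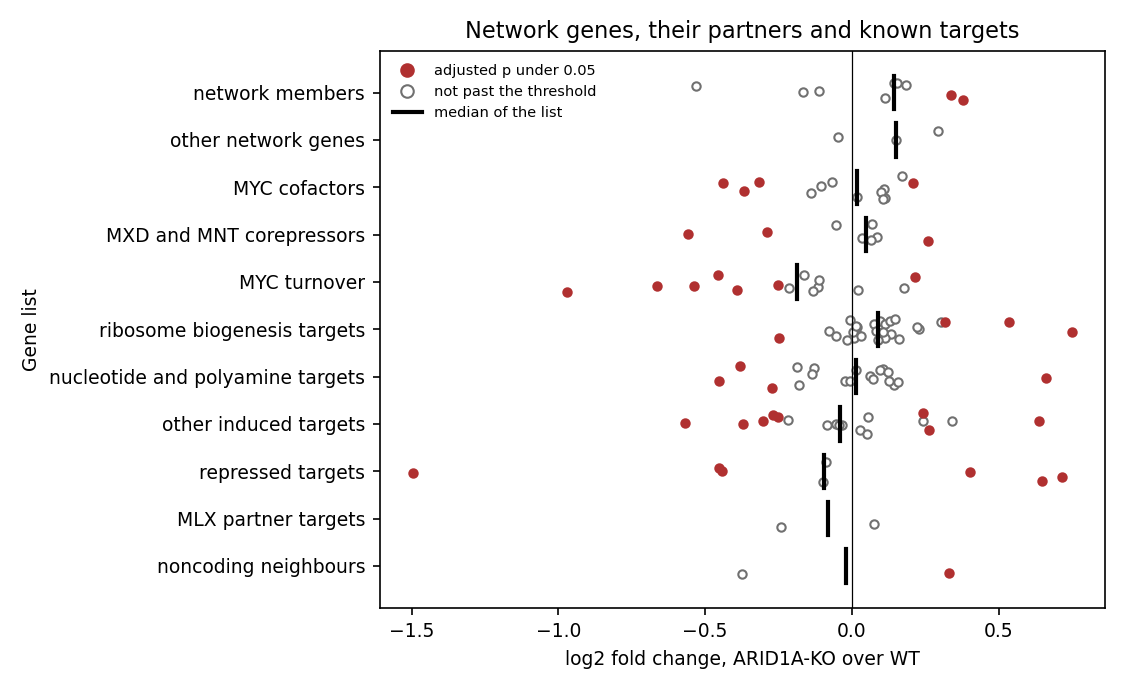
Log2 fold change of ARID1A-KO over WT for every tested gene of the network and of the pathway lists, filled where the adjusted p was under 0.05, with a line at the median of each list. The medians run from -0.19 for MYC turnover to 0.15 for the network and the remaining network genes.

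The genes whose pattern over the 6 samples came closest to a member were found by the root mean square difference of log2 CPM after each gene was centred on its own mean. For MYC, among 13216 genes, these were HDAC11 (difference 0.031), FAM134C (0.034) and ZNF329 (0.038), none of which passed the test between genotypes (adjusted p = 0.459, 0.134 and 0.436, edgeR). For MAX they were HTR1D (0.027), OGFOD1 (0.027) and ZNF394 (0.032), on chromosomes 1, 16 and 7. MYCN, the member with the largest fold change by size in the fit of all samples (not without ARID1A-KO replicate 4), had no close match, with RBM47 (0.33), AC006273.5 (0.35) and RP11-996F15.2 (0.36) nearest. With only 3 to 22 counts in a sample, MYCN was not called.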

How the data were processed

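The authors aligned paired reads of 100 bp to hg19/GRCh37 (STAR, run within Roddy) and counted them with featureCounts. The deposited values used here are whole-number counts per gene, not normalized, in columns by strand, and the reverse-stranded column served. Deposited FPKM and TPM columns were not used here. The methods name a total RNA kit, the labels polyA RNA. The study calls the samples biological replicates.

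Over all genes, edgeR 4.0.16 in R 4.3.3 compared the genotypes (filterByExpr, TMM, quasi-likelihood test, Benjamini-Hochberg adjustment, 6 samples, no covariate), and a gene is called at an adjusted p under 0.05. CPM and RPKM use TMM library sizes. Neighbours are other tested genes. GC content comes from GENCODE exons lifted to GRCh37 (97.0% of tested genes). Promoters are RefSeq windows of GRCh38.p14, placed in GRCh37 by exact match. The fit was tested on simulated data. At least 300 counts in every sample were found for 8 of the 9 genes. Of these, MXD1 had the fewest, 314 to 497, so counting error weighs most there.

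The genes and lists were chosen with earlier results of these data known. Named are all 9 genes, ARID1A, and up to 2 called rises and 2 called falls per list (mean log2 CPM over 1). The 3 patterns closest to MYC, MAX and the member with the largest fold change by size, called or not, are named too. List genes named without a call complete a short list or marker set. Some list genes that this rule names are not reported here. PECAM1 had no match. The alternatives were unstranded counts, RLE, DESeq2 1.42.0, other filters, the replicate block, offsets on length, GC content and neighbours, each sample left out, and an adjusted p under 0.01.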

Additional observations from a re-analysis of the deposited data

Results flagged for a closer look

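Forward-strand counts, which the comparisons do not use, were looked at for all 9 network genes. At MXI1 alone they were higher in all 3 ARID1A-KO samples than in the highest WT sample. They came to 6, 6 and 2 counts in WT and 8, 15 and 15 counts in ARID1A-KO samples, with a mean of 0.0696 CPM and 0.187 CPM, and to 0.435% of the counts of MXI1 itself. The difference was not tested.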

How the results depend on the processing

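Of the 2 calls, that of MAX was lost with the neighbours' median taken off (log2 fold change 0.19), at an adjusted p under 0.01 (0.38) and in 4 of the fits that left out 1 sample (range 0.32 to 0.48), and that of MXI1 only with the neighbours' median taken off (0.17). Leaving out ARID1A-KO replicate 5 brought in MYC (range 0.0906 to 0.22) and MNT (0.16 to 0.24). The length offset brought in MNT (0.25) and the GC offset MXD4 (-0.29). Without a change of call, the GC offset lowered MNT to 0.07, MLX to 0.05 and MYC to 0.09, the length offset lowered MYC to 0.09, the neighbours' median taken off lowered MNT to 0.06 and MLX to 0.07, and leaving out 1 sample moved MXD4 to -0.05 and MYCN to between -1.02 and -0.19. MXD3 turned sign without WT replicate 5 (0.0024) and without ARID1A-KO replicate 3 (0.016), in a range from -0.25 to 0.016. The number of network genes called was 0 with the neighbours' median taken off, 1 at an adjusted p under 0.01 and 1 to 4 with a sample left out. The cause of these changes was not tested.

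At an adjusted p under 0.01, 4414 of all genes were called, as were 1 cofactor, 1 corepressor gene, 5 other induced targets, 3 repressed targets and 0 noncoding neighbours. The length offset gave 1 of the remaining network genes and 5 corepressor genes. Without a filter, and also with the replicate block, 7 ribosome biogenesis genes were called, and with the neighbours' median taken off 3 other induced targets. With a sample left out, 0 to 1 of the remaining network genes, 1 to 3 corepressor genes, 5 to 8 other induced targets and 0 to 1 noncoding neighbours were called. With the neighbours' median taken off, the sign turned for RUVBL1 (0.0565), TRPC4AP (-0.00616), UMPS (0.0354) and PRDX3 (-0.18).

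The replicate block, in which the replicate number is a term, left the calls of the network as they were, with 2 genes called, and moved the number of all calls from 7099 to 7477. Whether the numbers pair the samples is not clear. Same-numbered samples had correlations of their deviations of -0.24, 0.49 and 0.32. WT replicate 5 correlated best with ARID1A-KO replicate 5. WT replicate 4 did so with ARID1A-KO replicate 4, though hardly more (0.4896) than with ARID1A-KO replicate 3 (0.4862). WT replicate 3 correlated best with ARID1A-KO replicate 5 (0.4052).

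Levels per length moved by more than 1 SD for MYC in WT with plain library sizes (71.3 RPKM) and with unstranded counts (74.6), and with unstranded counts for MNT (1.77 in WT, 2.02 in ARID1A-KO cells) and MLX (16.99 and 18.4). With a window of 2 Mb the neighbours' median was -0.18 for MYC, -0.20 for MYCN, 0.23 for MAX, 0.52 for MXI1, -0.10 for MXD1, 0.10 for MXD3, 0.0527 for MNT and 0.14 for MLX. With a sample left out it ran from 0.0186 to 0.0519 for MXD3 and from 0.11 to 0.17 for MXD4. Depth limits MYCN and MLXIPL, which had few counts.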
